A study of Mus musculus with 4 samples.

Results

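The mouse mitochondrial genome encodes 22 tRNAs. The report concerns the 8 of them that lie on the plus strand of the reference, which carries the sequence of the heavy-strand transcript, and that start after mt-Co1, far from the heavy-strand promoter. They were chosen by Ensembl biotype, strand and start position, with no measured value, out of 17259 genes in the deposited table. RNA was sequenced from brown adipose tissue (BAT), the heat-producing fat, of mice labelled WT, in 2 libraries of isolated mitochondria (BAT-Mito) and 2 libraries titled BAT-total. The labels call the latter tissue minus mitochondria, whereas the study speaks of lysates of the whole tissue. If mitochondria were not removed from BAT-total, its values are those of the whole tissue. The labels give no strain, age or sex, and whether the libraries came from separate animals was not given in the sources used here, so that p-values measure only the spread between these libraries.

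Both strands of the mitochondrial genome are transcribed into long precursors in which tRNAs stand between the mRNAs. Mitochondrial RNase P cuts such a precursor at the 5′ end of most tRNAs and the RNase Z enzyme ELAC2 at their 3′ end, which at the same time releases the flanking mRNAs. The freed tRNA then receives a CCA tail from TRNT1, carries modified bases and is charged with its amino acid by a mitochondrial synthetase before it serves translation of the respiratory chain subunits.

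Sequences of the 8 genes are shown because their anticodons set which codons they serve and their short length limits which reads can be counted for them. They are the GENCODE M21 transcripts (GRCm38), 5′ to 3′ on the plus strand of the mitochondrial chromosome, with the anticodon in capitals. The anticodon was taken from the stretch that forms a stem of 5 base pairs, with at most 1 mismatch, around a loop of 7 bases. The loop had to hold a T just before the anticodon and a purine just after it. The anticodon had to read a codon of the named amino acid, and each gene held 1 such stretch.
mt-Td: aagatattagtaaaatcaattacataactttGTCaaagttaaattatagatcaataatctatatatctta
mt-Tk: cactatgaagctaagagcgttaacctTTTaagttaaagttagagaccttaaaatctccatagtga
mt-Tg: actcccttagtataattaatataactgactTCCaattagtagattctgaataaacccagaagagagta
mt-Tr: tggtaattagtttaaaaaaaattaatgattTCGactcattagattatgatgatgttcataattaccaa
mt-Th: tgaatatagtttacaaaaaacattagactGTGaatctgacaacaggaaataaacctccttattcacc
mt-Ts2: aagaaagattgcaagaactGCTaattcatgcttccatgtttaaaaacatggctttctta
mt-Tl2: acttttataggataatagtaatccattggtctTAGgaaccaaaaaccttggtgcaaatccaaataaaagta
mt-Tt: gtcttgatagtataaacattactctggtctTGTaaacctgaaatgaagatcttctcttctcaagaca

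The 8 genes serve aspartate (mt-Td), lysine (mt-Tk), glycine (mt-Tg), arginine (mt-Tr), histidine (mt-Th), the serine codons AGC and AGT (mt-Ts2), the leucine codons CTN (mt-Tl2) and threonine (mt-Tt). Together they read 1351 of the 3790 sense codons (35.6%) in the 13 mitochondrial mRNAs. The leucine tRNA mt-Tl2 reads the most, 444 codons or 11.72%, and the serine tRNA mt-Ts2 the fewest, 49 codons or 1.29%. In length they range from 59 bases in mt-Ts2 to 71 in mt-Tl2, and in GC content from 17.1% in mt-Td to 34.3% in mt-Tt. No sequence ends in an encoded CCA. None of them shares a run of 30 bases with another annotated transcript, while unannotated nuclear copies were not searched.

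Each of the 8 lies between other genes of the mitochondrial chromosome with next to no gap. mt-Td (positions 6942 to 7011) stands between the light-strand tRNA gene mt-Ts1 and mt-Co2, mt-Tk (7700 to 7764) between mt-Co2 and mt-Atp8, mt-Tg (9391 to 9458) between mt-Co3 and mt-Nd3, and mt-Tr (9808 to 9875) between mt-Nd3 and mt-Nd4l. mt-Th (11546 to 11612), mt-Ts2 (11613 to 11671) and mt-Tl2 (11671 to 11741) form a row between mt-Nd4 and mt-Nd5, in which mt-Ts2 and mt-Tl2 share 1 base. mt-Tt (15289 to 15355) follows mt-Cytb and is the last gene on this strand. All positions are those of the file and of GRCm38, and each gene is a single exon.

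These positions bear on the counts. The reads were 75 bases long before trimming, reads of at least 30 bases were kept, and reads overlapping more than 1 gene were discarded. The stretch around each gene that touches no other gene on either strand is 74 bases for mt-Td, 70 for mt-Tr and mt-Tl2, 69 for mt-Tk, 68 for mt-Tg and mt-Th, 67 for mt-Tt and 58 for mt-Ts2. A read aligned over all its 75 bases therefore could not be assigned to any of the 8 genes if both strands were considered in counting. If only the gene's own strand was considered, mt-Td had 140 bases and mt-Tt was open on its 3′ side, and the other 6 stayed under 75. Which of these settings was used is not given in the sources used here. Reads can align over fewer bases after trimming or with their ends clipped, and the aligned lengths were not analysed here.

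The values are counts divided by a size factor per library and rounded, called normalised counts here. In BAT-Mito they rose in steps of 8.32 and 6.90 units in replicates 1 and 2, from which 26288871 and 24910434 reads were recovered. The normalised totals of BAT-total were 1590096 and 1905303, and the reads behind them could not be recovered. All 9 brown adipocyte markers, among them Ucp1, were above 0 in all 4 libraries, with summed normalised counts of 1956 and 5141 in BAT-Mito and 8618 and 7628 in BAT-total. A list of 6 hepatocyte genes was uneven between libraries. Its summed normalised count was 9678 and 684 in BAT-Mito replicates 1 and 2, with all 6 genes above 0, and 162 and 5 in BAT-total, where 3 were above 0 in both libraries. The part of such foreign RNA in the tRNA values was not tested.

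All 8 tRNAs had higher normalised counts in BAT-Mito than in BAT-total, with no overlap between the groups, as for 8.59% of the 8215 genes tested. With limma all 8 were called higher at an adjusted p under 0.05, against 0.803% of the 8215 genes tested, and their median log2 fold change was 5.54, against -1.23 for all tested genes, though 3 of the 8 passed the filter on low values only through BAT-Mito. The direction holds for the scaling as deposited. With each library scaled to the same total (CPM) 0 were called higher and 4 lower, where 96.9% of all tested genes were lower. With each library scaled to the same total of its 37 mitochondrially encoded genes, 0 were called higher and 6 lower, where 97.2% of all tested genes were lower. With edgeR and DESeq2 on reads all 8 were called higher, where 2.17% and 2.3% of all genes were. Without BAT-Mito replicate 1 or 2 all 8 were called higher as well, where 5.68% and 7.57% of all genes were. Without BAT-total replicate 1 or 2, when the spread is that of the BAT-Mito pair alone and the lone library is assumed to vary alike, the median log2 fold change of the 8 was 5.49 and 5.46. In these fits 0 of the 8 tRNAs and 0 of all tested genes were called higher with limma, against 102 and 88 genes at an unadjusted p under 0.05.

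The histidine tRNA mt-Th had the highest normalised count of the 8 in both BAT-Mito libraries, with normalised counts of 57446 and 19000 in BAT-Mito against 160 and 153 in BAT-total. Both BAT-Mito libraries lay far above both others, and they differed from each other by a factor of 3.02. The log2 fold change was 7.71 (SE 0.74, limma adjusted p = 0.0256), the highest of the 8, and it was 6.91 without BAT-Mito replicate 1 and 8.51 without replicate 2. The lysine tRNA mt-Tk had 26289 and 14617 in BAT-Mito and 280 and 283 in BAT-total. Its log2 fold change was 6.12 (SE 0.52, limma adjusted p = 0.0249).

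The glycine tRNA mt-Tg was nearly as high as mt-Tk in BAT-total, with normalised counts of 220 and 230, but reached only 5867 and 4168 in BAT-Mito. Its log2 fold change of 4.45 (SE 0.45, limma adjusted p = 0.0277) was accordingly among the lowest. The threonine tRNA mt-Tt had 2413 and 1615 against 53 and 62, a log2 fold change of 5.08 (SE 0.47, limma adjusted p = 0.0249).

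The other 4 were low in every library. Aspartate tRNA mt-Td had normalised counts of 766 and 649 in BAT-Mito, from 92 and 94 reads, against 10 and 10 in BAT-total. Arginine tRNA mt-Tr had 233 and 159 (28 and 23 reads) against 8 and 8. Leucine tRNA mt-Tl2 had 208 and 193 (25 and 28 reads) against 7 and 6. Serine tRNA mt-Ts2 had 191 and 131 (23 and 19 reads) against 2 and 1. Counting error alone is wide for such read numbers: for 19 reads the exact 95% Poisson interval runs from 11.4 to 29.7. In BAT-total, rounding to whole units adds to it. The mean of mt-Td was 64.2 times higher in BAT-Mito on the log2(value + 1) scale, and the log2 fold changes of mt-Tr, mt-Tl2 and mt-Ts2 were 4.43 (SE 0.46), 4.75 (SE 0.41) and 6.02 (SE 0.51), with limma adjusted p from 0.0249 to 0.0293 for these 4. With 10 in place of 1 added to each value, the log2 fold changes of mt-Tr, mt-Tl2 and mt-Ts2 were 3.49, 3.67 and 3.87. With means of 8.0, 6.5 and 1.5 in BAT-total, mt-Tr, mt-Tl2 and mt-Ts2 passed the filter of a mean of 10 over all libraries only through BAT-Mito, so that their tests do not stand as support for a difference.

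**Figure D1:**
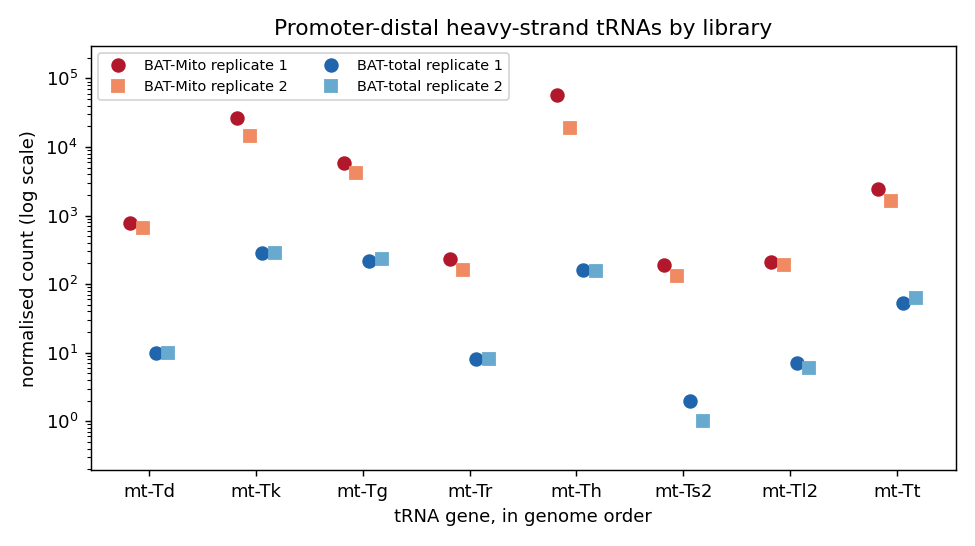
Normalised counts (log axis) of the 8 tRNA genes in genome order, 1 point per library, with circles for replicate 1 and squares for replicate 2. For every gene both BAT-Mito points lie above both BAT-total points, and the BAT-Mito points of mt-Th, 57446 and 19000, lie farthest apart.

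Compared per base of gene length, the 8 levels spanned a factor of 209 in BAT-Mito (293 and 128 in replicates 1 and 2) and 170 in BAT-total (127 and 257). In BAT-Mito the order of mean normalised counts per base was mt-Th (570 ± 406, SD, n = 2), mt-Tk (315 ± 127), mt-Tg (73.8 ± 17.7), mt-Tt (30.1 ± 8.42) and mt-Td (10.1 ± 1.18), followed by mt-Tr (2.88 ± 0.769), mt-Tl2 (2.82 ± 0.149) and mt-Ts2 (2.73 ± 0.719). mt-Th lay above mt-Tk within each library, although their ranges over the 2 libraries overlapped. The ranges of the last 3 genes overlapped as well, and their order is not resolved. In BAT-total the order began with mt-Tk (4.33 ± 0.0326), mt-Tg (3.31 ± 0.104) and mt-Th (2.34 ± 0.0739), followed by mt-Tt, mt-Td, mt-Tr, mt-Tl2 and mt-Ts2. Adjacent genes differed widely: in BAT-Mito the level of mt-Th was far above that of mt-Ts2 and mt-Tl2, which directly follow it. The leucine tRNA mt-Tl2, which reads the most codons, was among the 3 lowest.

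The make-up of the summed tRNA count differed between the fractions. mt-Th took 61.5% and 46.9% of the sum of the 8 genes in BAT-Mito replicates 1 and 2, and 21.6% and 20.3% in BAT-total. mt-Tg took 6.3% and 10.3% in BAT-Mito against 29.7% and 30.5% in BAT-total. mt-Tk took 28.1% and 36.1% against 37.8% and 37.6%. For mt-Th and mt-Tg the gap between the fractions exceeded that between replicates, while for mt-Tk BAT-Mito replicate 2 lay close to BAT-total.

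**Figure D2:**
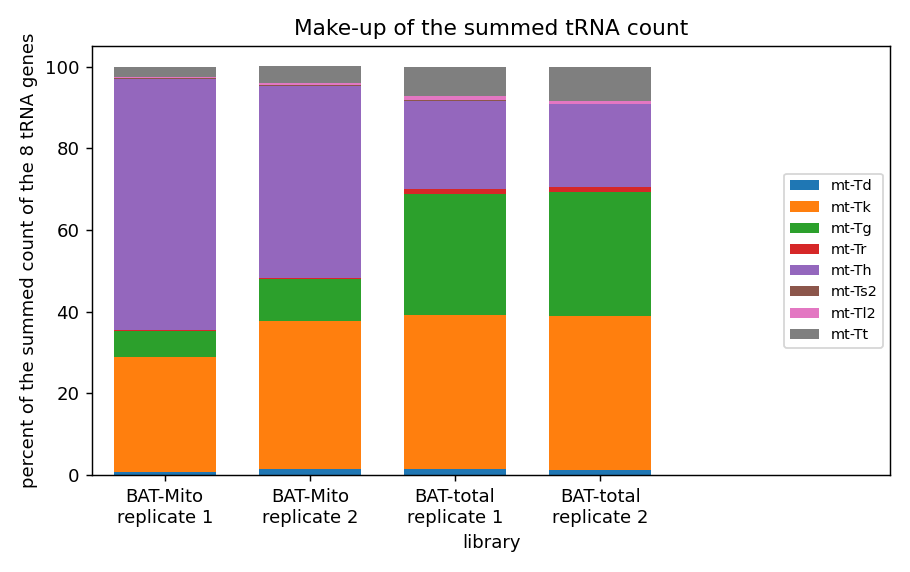
Share of each tRNA gene in the summed normalised count of the 8 genes (percent, linear axis from 0), 1 bar per library. mt-Th fills 61.5% and 46.9% of the BAT-Mito bars but 21.6% and 20.3% of the BAT-total bars, and mt-Tg rises from 6.3% and 10.3% in BAT-Mito to 29.7% and 30.5% in BAT-total.

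mt-Th also stood apart between the mitochondrial replicates. Its 6903 and 2753 reads gave a ratio of 2.51 between replicates 1 and 2. For the other 7 members that ratio lay between 0.89 (mt-Tl2) and 1.49 (mt-Tk), for the 13 mRNAs between 0.95 and 1.41, and for the other 14 tRNAs it reached at most 1.53. Beside this, the summed normalised counts of hepatocyte (9678 and 684), skeletal muscle (2530 and 773), macrophage (266 and 110) and endothelial markers (84 and 7) were higher in replicate 1, and those of brown adipocyte (1956 and 5141) and erythroid markers (225 and 628) were higher in replicate 2. Their part in the mt-Th difference was not tested.

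The tRNAs were also compared with the mRNA genes beside them on the same strand, 9 in all. These encode subunits of complex I (mt-Nd3, mt-Nd4l, mt-Nd4, mt-Nd5), complex III (mt-Cytb), complex IV (mt-Co1, mt-Co2, mt-Co3) and ATP synthase (mt-Atp8). Their log2 fold changes in BAT-Mito ran from 7.09 to 7.79, and 6 of the 7 tRNAs with an mRNA gene on either side lay below both. mt-Tt, which has mt-Cytb (7.53) alone, lay below it. mt-Tg had 4.45 between mt-Co3 (7.11) and mt-Nd3 (7.09), and mt-Tr had 4.43 between mt-Nd3 and mt-Nd4l (7.54). The exception was mt-Th with 7.71, between 7.62 in mt-Nd4 and 7.79 in mt-Nd5, and this rested on BAT-Mito replicate 1. Without that library mt-Th had 6.91, below mt-Nd4 (7.43) and mt-Nd5 (7.69), and without replicate 2 it had 8.51, above both (7.82 and 7.89).

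**Figure D3:**
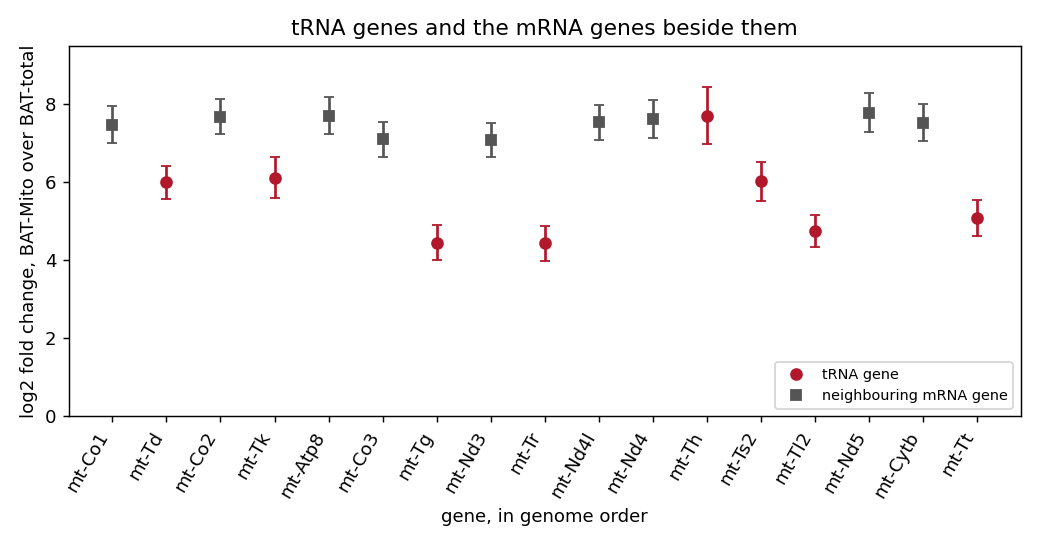
Log2 fold change of BAT-Mito over BAT-total, with the limma standard error as bars, for the 8 tRNA genes (circles) and their 9 neighbouring mRNA genes (squares) in genome order. The mRNA genes form a band from 7.09 to 7.79, and every tRNA except mt-Th lies below it, between 4.43 and 6.12. Without BAT-Mito replicate 1, mt-Th (6.91) also lies below both of its neighbours.

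A ratio of a tRNA to its neighbours within 1 library does not depend on how libraries are scaled. The level of mt-Tg per base was 10.1% and 9.36% of the mean of its neighbours in BAT-Mito, and 66.2% and 56.1% in BAT-total, a difference of 6.27-fold. mt-Tk fell from 67.8% and 51.6% in BAT-total to 23.3% and 16.9% in BAT-Mito, 2.98-fold. For mt-Tr the ratios were 0.476% and 0.406% in BAT-Mito and 3.48% and 2.74% in BAT-total, 7.03-fold. These 3 and mt-Td (2.64-fold), mt-Tl2 (6.74-fold) and mt-Tt (5.36-fold) had lower ratios in both BAT-Mito libraries than in either BAT-total library, 6 of the 8. Several of the 8 share a neighbour, so that their ratios are not independent. The ratio was not computed for the other mitochondrial tRNAs, so that a lower ratio is not shown to be particular to these genes. mt-Ts2 (0.180% and 0.151% against 0.533% and 0.177%) and mt-Th (47.6% and 19.3% against 37.6% and 23.8%) overlapped between the fractions. The difference for mt-Th was 0.02 on the log2 scale, far within the spread of its replicates.

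**Figure D4:**
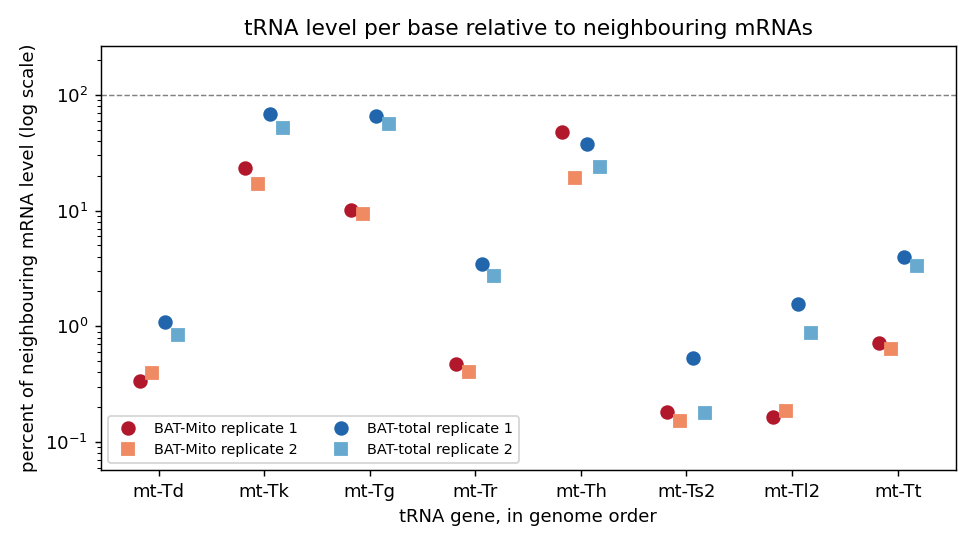
Level per base of each tRNA gene as a percentage of the mean level per base of its neighbouring mRNA genes (log axis), 1 point per library, with a dashed line at 100%. BAT-Mito points lie below both BAT-total points for 6 genes, while those of mt-Th and mt-Ts2 overlap with them.

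Over all members, the 8 tRNAs summed to 0.431% and 0.248% of their neighbours' normalised counts in BAT-Mito and to 0.862% and 0.638% in BAT-total. On the log2 scale the ratio averaged -8.26 ± 0.56 in BAT-Mito and -7.08 ± 0.31 in BAT-total (SD over 2 libraries), so that it differed by -1.18. Without BAT-Mito replicate 1 or 2 it differed by -1.58 and -0.78, and with the median of the members' ratios per base in place of sums by -2.62. The exact two-sided permutation test gave p = 0.333, which is the smallest value that 2 libraries against 2 allow, and the same holds for each of the 6 genes named above. As mt-Th makes up much of this sum, it was also left out, and the difference was then -1.99. Fragmentation during library preparation was adjusted for the mitochondrial samples and is not given for the others, so that fraction and fragmentation cannot be told apart. Of the neighbours, mt-Atp8 shares 43 of its 204 bases with mt-Atp6, from which reads were discarded in all libraries.

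As a share of all mitochondrially encoded counts the 8 tRNAs were lower in BAT-Mito. They took 0.0448% (95% Wilson interval 0.044 to 0.0457%) and 0.0247% (0.0241 to 0.0253%) there, and 0.0911% and 0.0667% in BAT-total. The means were 0.0348% ± 0.0142 and 0.0789% ± 0.0173 (SD, n = 2 each), a gap larger than either spread. Intervals cover counting error only. Among mRNA and tRNA counts alone the shares were 0.246% ± 0.0932 and 0.528% ± 0.0991. As a share of all genes of the library the fractions overlapped, with 0.0427% and 0.0236% in BAT-Mito and 0.0465% and 0.0395% in BAT-total.

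The scaling decides the direction of the fold changes. With the 37 mitochondrially encoded genes brought to the same total, the log2 fold change was -3.13 for mt-Tg, -2.92 for mt-Tr, -2.56 for mt-Tl2, -2.48 for mt-Tt, -1.47 for mt-Tk and -1.44 for mt-Td, all at a limma adjusted p of at most 0.0374. Under it mt-Ts2 had a log2 fold change of -0.75 and mt-Th of 0.13, neither past the threshold (limma adjusted p = 0.3 and 0.853). The 13 mRNAs had a median of -0.07 under the same scaling. Relative to the median of all tested genes, which moved from -1.23 to -7.76, the 8 tRNAs stayed above it, by 4.63 to 7.89 here and by 5.66 to 8.94 with the scaling as deposited.

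**Figure D5:**
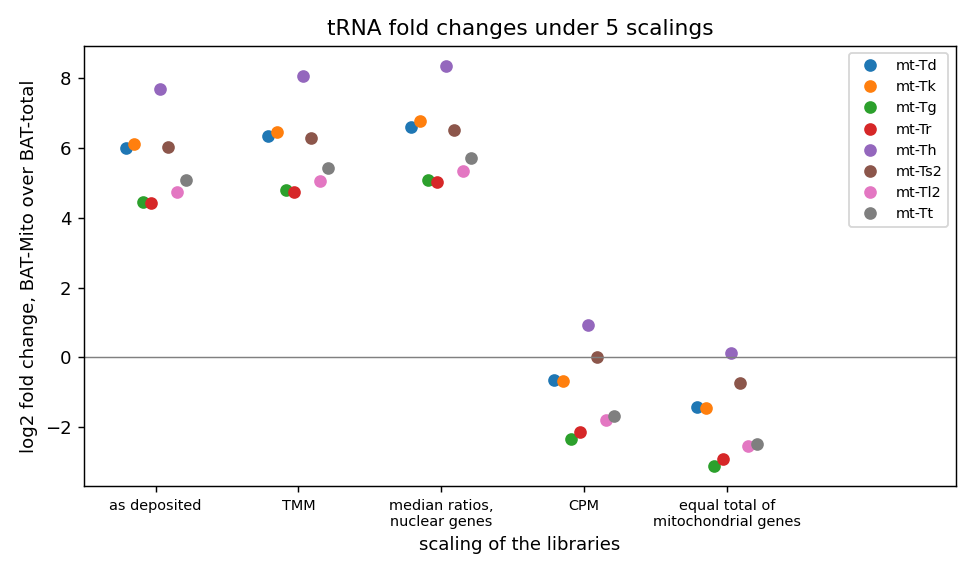
Log2 fold change of BAT-Mito over BAT-total for the 8 tRNA genes under 5 scalings of the libraries, with a line at 0. All 8 genes lie above 0 as deposited, with TMM and with median ratios of nuclear genes, and with equal totals of mitochondrial genes only mt-Th, at 0.13, stays above 0.

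The remaining 14 mitochondrial tRNAs had similar fold changes. The median was 5.10 (4.27 to 7.17) for the 6 promoter-proximal tRNAs of the heavy strand and 5.62 (4.80 to 9.40) for the 8 light-strand tRNAs, against 5.54 (4.43 to 7.71) for the 8 promoter-distal ones and 7.53 for the 13 mRNAs. Fold changes below that of every mRNA were found for 7 of 8 distal, 5 of 6 proximal and 6 of 8 light-strand tRNAs. The summed distal count was 2.83 and 1.83 times the proximal one in BAT-Mito, and 0.975 and 0.987 times in BAT-total (log2 difference 1.21, exact permutation p = 0.333). This excess depends on the abundant genes in the sums: with medians over the members in place of sums the difference was -0.15. Against the light-strand tRNAs the sums stood at 0.698 and 0.452 in BAT-Mito and 1.05 and 0.933 in BAT-total (log2 difference -0.81, exact permutation p = 0.333), and the difference was -1.13 and -0.50 without BAT-Mito replicate 1 or 2, and -0.27 with medians. The genes whose profile over the 4 libraries was nearest to the mean profile of the 8, by Euclidean distance of centred log2 values, were all mitochondrial tRNAs: mt-Tn (0.18), mt-Tq (0.22), mt-Tm (0.23), mt-Ta (0.23) and mt-Ts1 (0.30).

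Nuclear mRNAs for enzymes of tRNA maturation, modification and charging were examined as a list, in which only the synthetases were chosen for the 8 tRNAs. Of 32 listed genes 23 were tested with limma, and 0 were called higher and 0 lower, where 0.803% of all tested genes were higher and 4.41% lower, so that a count of 0 among 23 is near the background. With CPM and with equal mitochondrial totals all 23 were called lower, where 96.9% and 97.2% of all tested genes were. Without the filter on low values 7 of 32 were called lower, where 20.8% of all genes were. At an unadjusted p under 0.05 there was 1 lower gene with the scaling and filter as first given (14.9% of all tested genes), and edgeR and DESeq2 on reads called 0 as well, against 2.5% and 2.58% of all genes lower, with 4 and 2 lower genes at an unadjusted p under 0.05 (23.7% and 16% of all genes) and no adjusted p for 5 genes with DESeq2. The median log2 fold change of the 23 was -0.94, against -1.23 for all genes. Among the genes of end maturation, Trmt10c, a subunit of mitochondrial RNase P, had normalised counts of 17 and 35 in BAT-Mito (2 and 5 reads) and 43 and 38 in BAT-total. Elac2 had 0 and 7 (0 and 1 reads) against 63 and 46, and Trnt1 had 0 and 7 against 28 and 28. Of the 8 synthetases, that for leucine, Lars2, had the highest log2 fold change at 0.94 (SE 0.48, limma adjusted p = 0.355), from 117 and 76 in BAT-Mito and 54 and 44 in BAT-total. Of the 32 genes, 7 were at 0 in both BAT-Mito libraries. The count of calls also depended on the BAT-Mito libraries, without 1 of which the spread is that of the BAT-total pair. Without replicate 1, 7 of the 23 genes were called lower, against 41.1% of all tested genes. Without replicate 2, 12 were called lower and 1 higher, against 47% and 7.57% of all tested genes.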

How the data were processed

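RNA of isolated mitochondria and of BAT-total was sequenced as single-end reads from libraries of the SMARTer Stranded Pico kit. According to the methods and the processing notes, the authors trimmed reads with Trimmomatic 0.39, aligned them to GRCm38 (mm10) with STAR 2.7.10a and counted them per gene with featureCounts 2.0.2. The deposited values are such counts after the authors normalised them with DESeq2 1.30.1 and rounded them, a signal in scaled reads. The versions are those of the processing notes, and the study's methods name other ones for STAR, featureCounts and DESeq2. Groups and replicate numbers came from the titles.

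Genes whose normalised counts averaged 10 or more were tested as log2(value + 1) in limma 3.58.1 (R 4.3.3) with the group as the single term, and p-values were adjusted by Benjamini-Hochberg over all 8215 genes. Fold changes are on this scale, which understates those of low genes. Whole reads were recovered for 100.0% of BAT-Mito values within 1 unit. For BAT-total no reads were recovered, and the alternatives edgeR 4.0.16 and DESeq2 1.42.0 took its deposited values as reads. BAT-Mito replicates differed by more than sampling noise (chi-square per degree of freedom 16.1 on recovered reads). For BAT-total the value was 4.5, computed on the deposited values in place of reads. It can therefore be set neither against sampling noise nor against the BAT-Mito value. Ratios were compared by exact permutation over the 4 libraries. Recovery and limma were tested on simulated data. The rule for the 8 genes uses no measured value, but these genes, the lists and the tests were picked with earlier results of these data known, and leaving mt-Th out of the sum was added after seeing the values. Named genes were the 8 members, their nearest plus-strand mRNA genes, a list of 32 enzymes of tRNA maturation, modification and charging, and the 5 genes with the nearest profile. Lists of skeletal muscle, erythroid, macrophage and endothelial markers were also summed: their normalised counts in BAT-Mito and BAT-total were 2530 and 773 against 244 and 505, 225 and 628 against 290 and 611, 266 and 110 against 37 and 40, and 84 and 7 against 804 and 863.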

Additional observations from a re-analysis of the deposited data

How the results depend on the processing

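The 8 higher calls stood with a pseudocount of 0.5 or 10 except those of mt-Tr and mt-Ts2 with 10 (log2 fold changes 3.49 and 3.87, limma adjusted p = 0.0724 and 0.0568). All 8 also stood with other filters, TMM, median ratios, an intensity trend, edgeR and DESeq2 (2.17% and 2.3% of all genes higher). Of the 8215 genes tested, 65 and 53 were called higher with pseudocounts of 0.5 and 10. With TMM, median ratios and an intensity trend, 68, 69 and 72 of them were. Without the filter 143 of 17259 genes were called higher, and with a mean of at least 50, 64 of 2481. With CPM 0 of the 8 tRNAs were higher and 4 lower, and with equal totals of mitochondrially encoded genes 0 were higher and 6 lower, where 96.9% and 97.2% of all tested genes were lower. The median of all genes moved to -7.15 and -7.76 in these fits. With the replicate block, which leaves 1 residual degree of freedom, 0 were higher (limma adjusted p 0.158 to 0.159), as were 0 of all genes. The equal numbers are not stated to pair libraries, and their deviations correlated at 0.112 from 1 pair of differences. Without 1 library, when the spread is that of the pair left whole, all 8 log2 fold changes stayed above 0, while the calls depended on which library was left out.

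The median of the 8 was 4.64 with a pseudocount of 10, 5.86 with TMM, 6.13 with median ratios, 5.24 to 5.75 without 1 library, -1.18 with CPM and -1.98 with equal mitochondrial totals. Single values with CPM were -0.65 for mt-Td, -0.68 for mt-Tk, -2.34 for mt-Tg, -2.15 for mt-Tr, -0.0028 for mt-Ts2, -1.80 for mt-Tl2, -1.69 for mt-Tt and 0.92 for mt-Th. With equal mitochondrial totals they were -1.44, -1.47, -3.13, -2.92, -0.75, -2.56, -2.48 and 0.13 in the same order.

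The distal to proximal ratio turned to -0.15 with medians in place of sums. The difference in share, BAT-Mito minus BAT-total, was -0.2815 percentage points with rRNA genes left out and -0.0099 over all genes of the library, against -0.0441 of mitochondrially encoded counts. Over all genes of the library the shares of the fractions overlapped. The tRNA to neighbour and light-strand ratios kept their direction under every alternative run.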
